A study of Mus musculus with 10 samples.

Results

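The proteasome subunit genes are the 48 genes whose symbol begins with Psma, Psmb, Psmc, Psmd, Psme, Psmf or Psmg followed by a digit, among the 13272 genes with reads kept in this direct RNA sequencing study. They were found by name alone, on annotated mRNA that was not a pseudogene, and only reads whose poly(A) tail estimate had the quality tag PASS were kept. They hold 24814 of 2041970 kept reads. The name rule also takes Psmc3ip, a meiotic recombination factor that is no proteasome subunit and holds 71 of these reads. Symbols such as Psma8 and Psmb11 had no kept read.

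Undifferentiated P19 cells, a wild-type mouse embryonal carcinoma line, were transfected by Lipofectamine with a single siRNA against Larp1 (siLarp1) or with a pool of scrambled siRNAs (siCtl), and were collected at 24 h or 48 h. The 48 h cells of both treatments received another transfection at 24 h. Each treatment had 3 libraries at 24 h, named 19, 21 and 22, and 2 at 48 h, named 24 and 25, prepared from oligo-dT purified RNA and run on R9 nanopores. The study's methods call the libraries of a group biological replicates and give no further detail of their cultures. The p-values draw on the spread between these libraries, moderated across all genes, and not on a gene's own spread alone. For tail shares that spread was not allowed below the counting error of the reads, so those p-values depend largely on read counts. All cells are of 1 line, and the knockdown rests on 1 Larp1 siRNA. The siCtl and siLarp1 libraries at 24 h went through sequencing in different pools, which means that an effect of the pool cannot be told apart from one of the siRNA at that time. A common pool held the 4 libraries at 48 h.

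The proteasome degrades proteins tagged with ubiquitin. Its core is a barrel of stacked alpha and beta rings, in which the beta ring holds the peptide-cutting sites, and it is capped by a regulatory particle whose ATPases unfold the substrate and whose other subunits bind and remove ubiquitin. Its subunits are made in fixed proportion and put together with the help of dedicated chaperones. LARP1 is an RNA-binding protein best known for binding mRNAs that start with a terminal oligopyrimidine (TOP) motif, as those of ribosomal proteins do, and it also associates with poly(A) tails and the poly(A)-binding protein. The data address which mRNAs change their tails when Larp1 is lowered.

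Larp1 itself was measured at 76, 84 and 85 RPM (reads scaled to the kept reads of the library) in siCtl libraries 19, 21 and 22 and at 33, 45 and 19 RPM in the siLarp1 libraries of the same numbers. At 48 h it was at 169 and 123 RPM in siCtl and at 19 and 25 RPM in siLarp1 libraries. The siLarp1 libraries were lower without overlap at both time points, on 3 to 6 reads each. Larp1 fell by 1.82 on the log2 scale (SE 0.36) over both time points, with a Benjamini-Hochberg adjusted limma p of 0.0124, while single time points gave 0.826 (24 h) and 0.245 (48 h). Kept alignments ran from 289738 to 423398 in siCtl and from 119863 to 157054 in siLarp1 libraries at 24 h, and from 112720 to 178704 at 48 h, so that each siLarp1 library at 24 h was shallower than each siCtl library. The proteasome genes had from 1308 to 5357 reads per library. Of 10 embryonal carcinoma markers 9 had reads (Zfp42 was at 0), and their sum was 3257 to 4356 RPM over all libraries. Neuron markers summed to 199 to 372 RPM over all libraries. Mesoderm and endoderm markers summed to 23.2 to 82.8 RPM at 24 h and to 151 to 415 RPM at 48 h, with Sox17 at 0, and fibroblast markers to at most 43.6 RPM. In these bulk libraries fewer cells of a type and less RNA per cell cannot be told apart.

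The annotated start of each proteasome gene was compared with the TOP motif, because the letters at the start bear on which mRNAs LARP1 is known to bind. The search was for a C at the annotated start followed by at least 4 pyrimidines, on the gene's strand, and it was found in 0 of the 41 proteasome genes matched in RefSeq (GRCm38.p6). It was found in 22.7% of 66 cytosolic ribosomal protein genes, in 0 of 7 subunit genes of the TRiC chaperonin, another large complex of single-copy subunits, and in 3.01% of all 27025 genes of the table. The longest pyrimidine run was also taken among those beginning within 5 bases of the start. Its median was 4 bases in proteasome genes, 4 in ribosomal protein genes and 3 over all genes. Annotated starts can lie off the start used in these cells. The windows below hold 10 bases before the start and 20 bases from it, in lower case, with the unbroken pyrimidines from the start base onwards in capitals. They belong to proteasome genes described below and to a pair of ribosomal protein genes. That pair was picked among the most read of those in which the search found the motif, so their contrast was set by the choice.

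Psma1 (chr7:114276097-114276126, minus strand): tagattgcacTTCCTgcgtcgccgccgtca
Psmb4 (chr3:94886939-94886968, minus strand): ggaccacttcCgtttccggtgacgctagcg
Psmc6 (chr14:45329814-45329843, plus strand): tcccggcatcCCCTatgagcgacggcttct
Psmd14 (chr2:61711684-61711713, plus strand): ctccccggcggactccaattggcggtagaa
Psmb5 (chr14:54617976-54618005, minus strand): tgcccttgctaaacatggcgctggctagcg
Psma7 (chr2:180042445-180042474, minus strand): ccctgacgccagacgccagcagcgtggccc
Psmg1 (chr16:95990941-95990970, minus strand): ggggtgggggCgtggcttggagggggcgtg
Rpl38 (chr11:114668570-114668599, plus strand): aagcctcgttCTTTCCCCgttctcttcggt
Rpl15 (chr14:18270967-18270996, minus strand): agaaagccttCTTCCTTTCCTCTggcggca

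Counted from the start base, the longest pyrimidine stretch of the proteasome genes shown is the 5 bases of Psma1, which begins with T, whereas Rpl15 carries a long run from a C.

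In siCtl cells at 24 h the proteasome mRNAs had shorter tails than most mRNAs. Over the 39 proteasome genes with at least 100 reads at 24 h, the median of the genes' median tails was 94.5 nt, compared with 103.3 nt over all 1945 genes with that many reads, 98.4 nt over 86 ribosomal protein genes and 101.0 nt over 8 TRiC genes. Their median share of tails of 30 to 90 nt, the class the study calls ~60-nt tails, was 44.1% against 37.5% over all genes. Their median share of tails under 30 nt was 4.01% against 2.44% over all genes and 1.64% over ribosomal protein genes. These are descriptions of control cells, with no test.

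**Figure D1:**
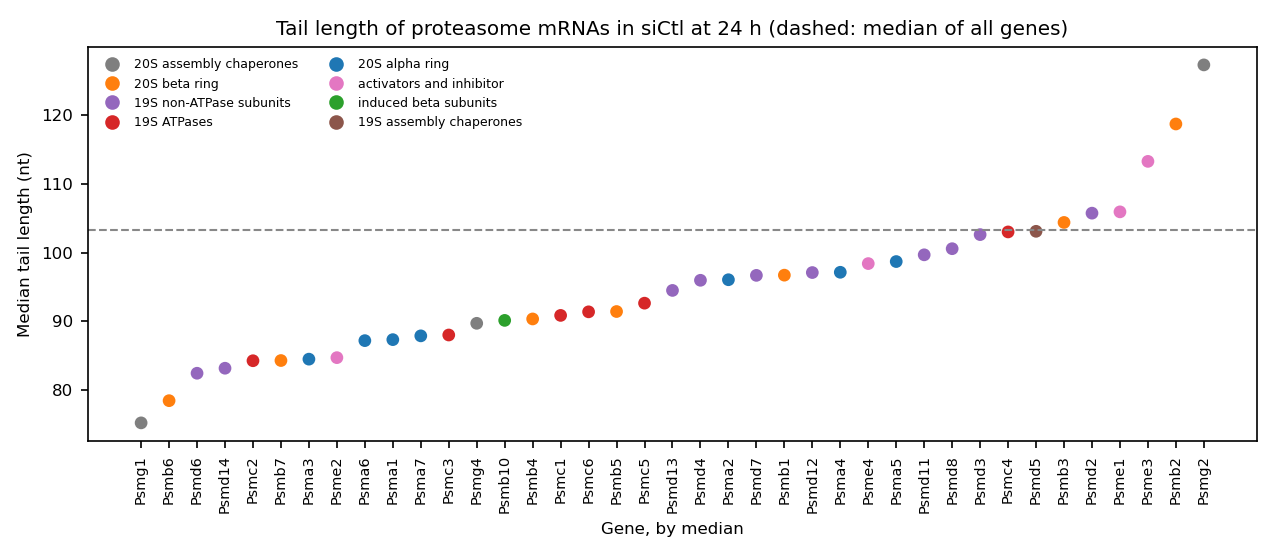
Median tail length (nt) of the pooled siCtl reads at 24 h for each of the 39 proteasome genes with at least 100 reads at 24 h, in order, with colours for the subcomplex and a dashed line at the median of all genes (103.3 nt). Most points lie below the line, from Psmg1 at 75.3 nt to Psmg2 at 127.3 nt.

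The longest tails were those of Psmg2 (127.3 nt, 75 siCtl reads), an assembly chaperone of the core particle, Psmb2 (118.7 nt), a beta ring subunit, and Psme3 (113.3 nt), a nuclear activator of the core. The shortest were those of Psmg1 (75.3 nt), the partner chaperone of Psmg2, Psmb6 (78.5 nt), which carries the caspase-like site, and Psmd6 (82.5 nt), a non-ATPase subunit of the cap. The Psmb6 value rests on a minority of its alignments, most of them to a retained-intron transcript, as described below. Psmg1 and Psmg2, whose products act as a pair, thus stood at opposite ends of the order at 24 h. At 48 h the pooled siCtl medians were 60.3 nt for Psmg1 (38 reads) and 92.9 nt for Psmg2 (23 reads). Psmg2 was then below Psmb2, at 112.2 nt. Tails under 30 nt were most frequent in the cap ATPases Psmc6 (7.74%) and Psmc2 (7.51%) and least frequent in Psmb2 (0.472%) and Psmd2 (0.794%), the scaffold subunit of the cap. Neighbours in the order do not stand apart: the siCtl libraries of Psmg2 alone ran from 116.6 to 158.1 nt and those of Psme3 from 97.7 to 125.3 nt. Across 35 proteasome genes the siCtl medians at 24 h and 48 h had a Spearman correlation of 0.45. Across the 39 genes the siCtl median had one of 0.25 with transcript length and of −0.13 with the number of reads. The points of each correlation share libraries.

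After Larp1 knockdown the pooled reads of the proteasome genes had fewer ~60-nt tails and longer median tails at both time points. The share of ~60-nt tails at 24 h was 43.8%, 41.3% and 43.4% in siCtl libraries 19, 21 and 22 and 38.9%, 38.3% and 36.3% in the siLarp1 libraries. At 48 h it was 44.1% and 43.5% in siCtl and 39.1% and 36.0% in siLarp1 libraries 24 and 25. Each siLarp1 library was below each siCtl library of its time point. Averages for siCtl and siLarp1 were 42.9% ± 1.33 and 37.8% ± 1.36 at 24 h (SD, n = 3), and 43.8% ± 0.412 and 37.5% ± 2.16 at 48 h (SD, n = 2). No p-value is given for values over the proteasome genes together, since they were taken up with earlier results of these data known.

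**Figure D2:**
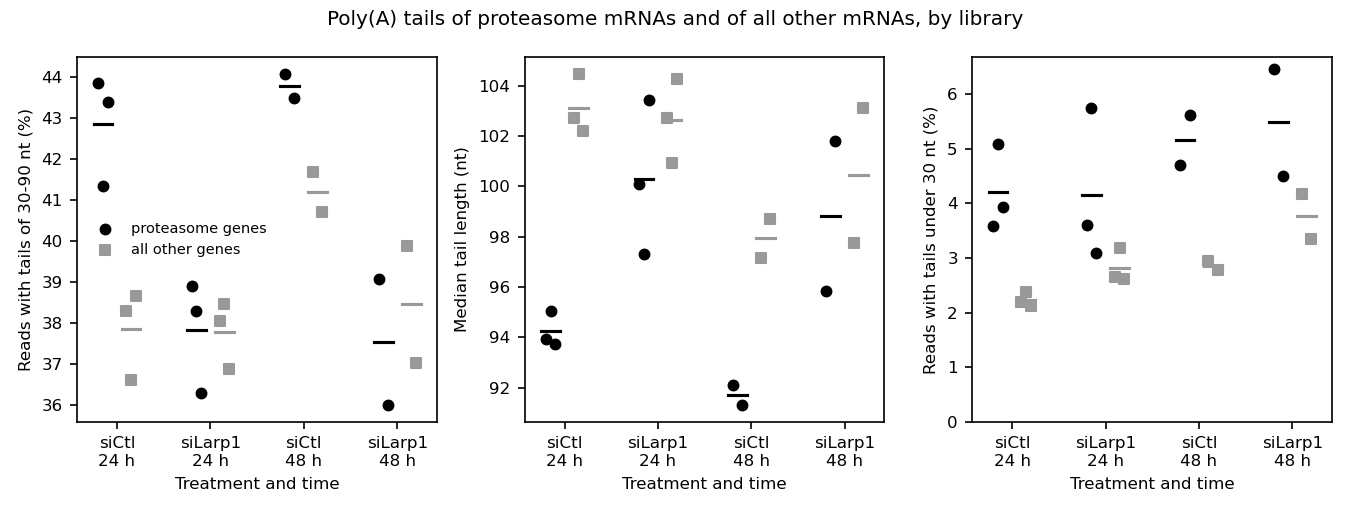
Pooled values per library (points, with the group mean as a line) for the proteasome genes (black circles) and for all other genes (grey squares), by treatment and time, as the share of ~60-nt tails (%), the median tail (nt) and the share of tails under 30 nt (%). The first and second panels do not start at 0. For the proteasome genes the siLarp1 libraries lie below the siCtl libraries in ~60-nt tails and above them in median tail at both times, while the shares under 30 nt overlap.

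The pooled median tail of the proteasome genes at 24 h was 93.9, 95.0 and 93.8 nt in siCtl and 100.1, 97.3 and 103.4 nt in siLarp1 libraries. At 48 h it was 92.1 and 91.3 nt in siCtl and 95.9 and 101.8 nt in siLarp1 libraries. The siLarp1 libraries were higher without overlap, by 6.05 nt at 24 h and 7.11 nt at 48 h. The 48 h difference was 4.14 nt without siLarp1 library 25 and 10.1 nt without siLarp1 library 24.

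The share of tails under 30 nt did not separate the treatments. It was 3.59%, 5.10% and 3.94% in siCtl and 3.60%, 5.76% and 3.09% in siLarp1 libraries at 24 h. At 48 h it was 4.71% and 5.62% in siCtl and 6.47% and 4.51% in siLarp1 libraries. The groups overlapped at both times, and library 21 was the highest of each 24 h group.

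All other genes of the same libraries had the following values. Their ~60-nt share was 37.9% in siCtl and 37.8% in siLarp1 libraries at 24 h, with overlap, and 41.2% and 38.5% at 48 h, where the siLarp1 libraries were lower without overlap. Their share of tails under 30 nt was higher without overlap in siLarp1 libraries, at 2.24% and 2.82% at 24 h and 2.86% and 3.77% at 48 h. Within each library the proteasome genes' ~60-nt share minus that of all other genes averaged 5.0 percentage points (SD 0.484, n = 3) for siCtl at 24 h but 0.0309 (SD 0.734, n = 3) for siLarp1. Its 48 h averages were 2.58 for siCtl (SD 0.273, n = 2) and −0.920 for siLarp1 (SD 0.160, n = 2). This gap was lower without overlap in siLarp1 libraries at both times, and the gap in median tail narrowed from −8.89 to −2.35 nt at 24 h and from −6.22 to −1.61 nt at 48 h, also without overlap. The gap in tails under 30 nt overlapped at both times.

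The complexes compared with it had other values. In ribosomal protein genes the share under 30 nt was 1.80% in siCtl and 3.10% in siLarp1 libraries at 24 h, and 2.52% and 4.34% at 48 h, without overlap at both times. Their median tail was 97.4 and 94.0 nt at 24 h, the opposite direction to the proteasome genes, and 91.0 nt in both treatments at 48 h. In TRiC genes the ~60-nt share was 39.1% and 37.0% at 24 h, without overlap, and 42.3% and 36.9% at 48 h, with overlap, and their median tails overlapped at both times.

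**Figure D3:**
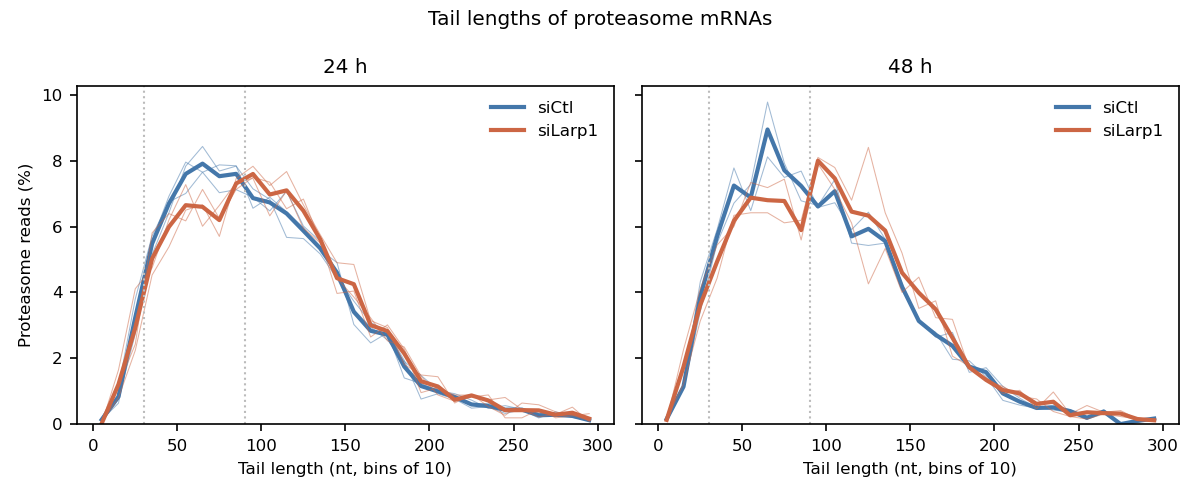
Tail lengths of the proteasome reads (nt, bins of 10) as percent of reads at each time, with thin lines for libraries, thick lines for group means (siCtl blue, siLarp1 orange) and dotted lines at 30 and 90 nt. The mean siLarp1 line runs below the siCtl line over most of the range from 30 to 90 nt and above it just past 90 nt.

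Along the distribution, the proteasome genes' 75th percentile rose from 133.9 to 138.3 nt at 24 h and from 131.2 to 135.6 nt at 48 h, without overlap, while the 10th and 25th percentiles overlapped at both times. The 90th percentile was higher without overlap at 24 h (172.9 and 178.9 nt) and overlapped at 48 h. The separation was thus seen in the middle and upper part of the distribution. With each of the 48 genes left out in turn, the fall in the ~60-nt share at 24 h ranged from −5.38 to −4.72 percentage points, from without Psmb1 to without Psmb7, and at 48 h from −6.70 to −5.62, with no overlap in any of these cases.

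By subcomplex, both core rings and the cap ATPases had lower ~60-nt shares in siLarp1 libraries at both times. The alpha ring, whose subunits form the gate of the core, had a ~60-nt share of 45.2% ± 1.16 in siCtl and 39.3% ± 2.48 in siLarp1 libraries at 24 h (SD, n = 3), and of 48.2% ± 1.71 and 41.8% ± 3.54 at 48 h (SD, n = 2). The beta ring had 41.7% ± 1.74 and 37.6% ± 0.748 at 24 h, and 43.8% ± 0.290 and 37.4% ± 3.38 at 48 h. The cap ATPases had 43.9% ± 2.35 and 38.5% ± 1.29 at 24 h, and 41.5% ± 1.43 and 35.0% ± 4.95 at 48 h. None of these groups overlapped between treatments at either time. The non-ATPase subunits of the cap were lower without overlap at 24 h (42.0% ± 0.594 and 36.7% ± 3.35) and overlapped at 48 h (40.9% ± 3.05 and 37.0% ± 4.83). The activators and the inhibitor overlapped at both times, and the chaperones of the core overlapped at 24 h and were lower at 48 h. The inducible beta subunits and the chaperones of the cap rested on few reads.

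Single genes were tested in fits of all genes. For the shares, the fit was a quasi-binomial logistic model of reads with its dispersion moderated by limma, for genes with at least 100 reads at a time point. No proteasome gene passed an adjusted p of 0.05 in ~60-nt tails by this model or by limma on log2 odds. At 24 h 0.308% of 1945 genes were called, and 0 of 39 proteasome genes. At 48 h 0% of 843 genes were called, and 0 of 28. Over both times 0.641% of 1403 genes were called, and 0 of 35. At an unadjusted p under 0.05, 6 proteasome genes were lower at 24 h (background, the same share over all genes tested, 4.42%), 2 at 48 h (background 7.47%) and 9 over both times (background 6.41%). None was higher, with low backgrounds of 2.72%, 1.66% and 2.57%. The fitted change in log2 odds was below 0 in 30 of 39, 24 of 28 and 32 of 35 proteasome genes. Over all genes tested it was below 0 in 56.5%, 68.0% and 63.4%. The medians of the proteasome genes were −0.28, −0.35 and −0.35 beside −0.07, −0.18 and −0.10 over all genes. Without siLarp1 library 22 the 24 h median of the proteasome genes was −0.07 and 24 of 37 were below 0.

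**Figure D4:**
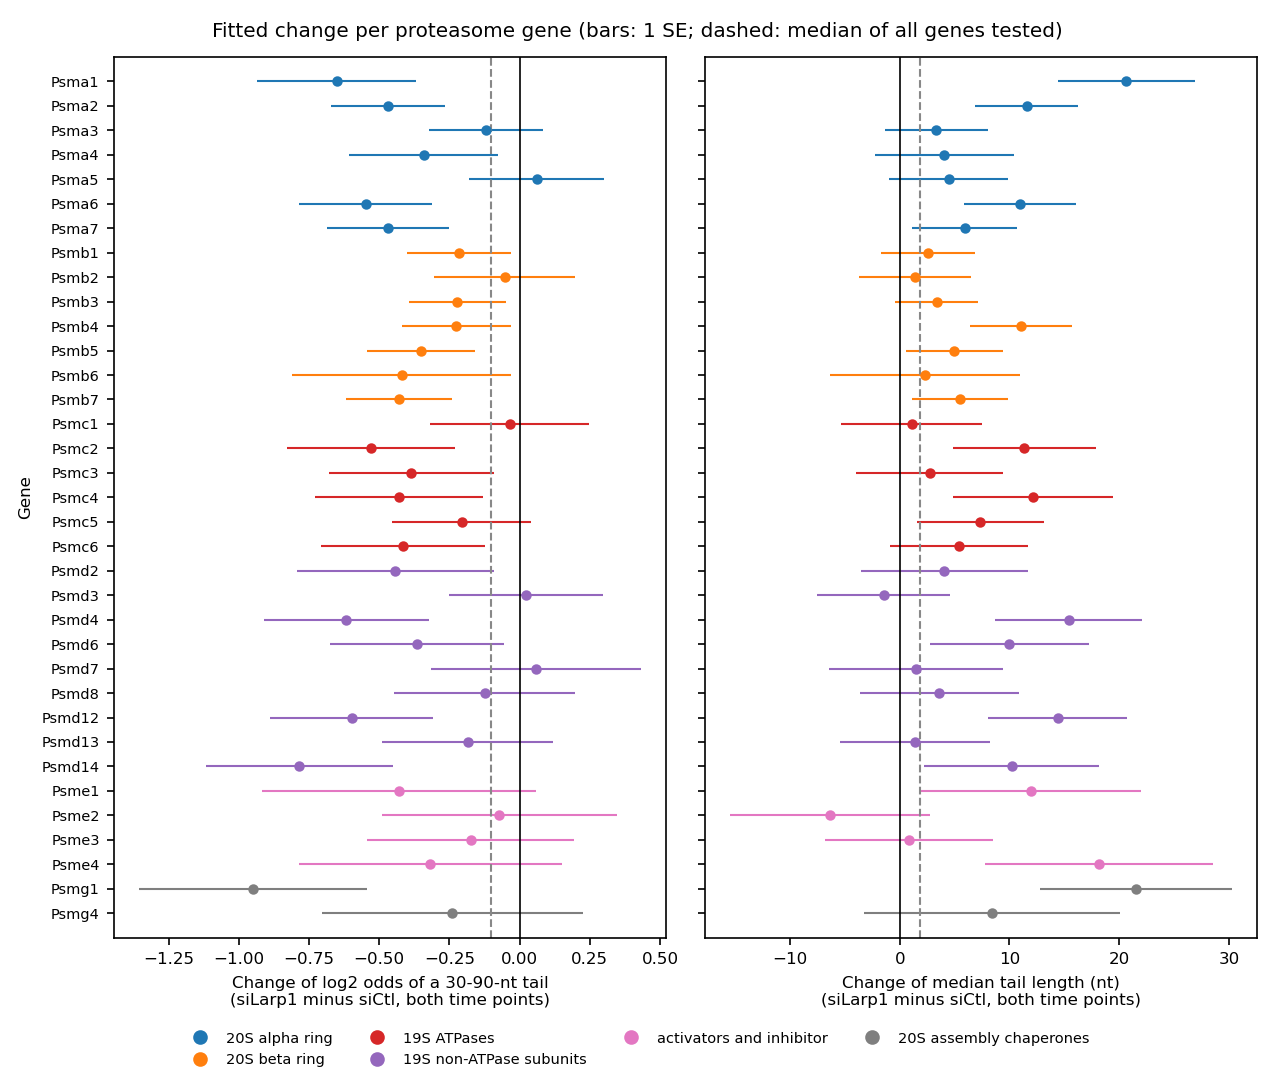
Fitted siLarp1 minus siCtl change over both time points for the 35 proteasome genes of the ~60-nt fit, as log2 odds of a ~60-nt tail (left) and median tail in nt (right), with bars of 1 SE, colours for the subcomplex and a dashed line at the median of all genes tested. In the left panel 32 of 35 genes lie below 0 (63.4% over all genes tested), and none passed the adjusted threshold in either measure.

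Groups did not overlap, with siLarp1 higher, in 0 of 39 proteasome genes at 24 h (background 5.09%) and in 1 of 28 at 48 h (Psma5, background 9.73%). With siLarp1 lower, they did not overlap in 7 of 39 at 24 h (background 8.12%), in 9 of 28 at 48 h (background 28.6%) and at both times in 2 of 28 (background 2.14%), Psmb4 and Psmd4. Psmd4, the ubiquitin receptor of the cap, had 46.4%, 46.5% and 41.5% ~60-nt tails in siCtl and 40.7%, 35.1% and 35.1% in siLarp1 libraries at 24 h, and 60% and 48.8% against 39.6% and 34.4% at 48 h. Psmb4, a beta ring subunit without a cutting site, had 46.2%, 44.1% and 44.9% against 43.1%, 43.4% and 41.3% at 24 h, and 43.8% and 42.3% against 38.5% and 32.7% at 48 h. Both were lower in every siLarp1 library.

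Psmd14, the deubiquitinase of the cap, had the smallest p at 24 h. Its ~60-nt share was 50.8%, 50.0% and 54.6% in siCtl and 41.7%, 25% and 33.3% in siLarp1 libraries, on 20 to 97 reads each, so the siLarp1 libraries were all lower. The change in log2 odds was −1.09 (SE 0.41, logistic model adjusted p = 0.394). At 48 h it was 37.5% and 36.1% in siCtl and 34.1% and 37.5% in siLarp1 libraries, with overlap, and the change over both times was −0.78 (SE 0.33, adjusted p = 0.444). Psmb7, which carries the trypsin-like site, was next at 24 h. Its shares were 48.8%, 50.9% and 45.4% in siCtl and 36.1%, 34.5% and 41.8% in siLarp1 libraries, without overlap (log2 odds −0.61, SE 0.23, adjusted p = 0.416), and at 48 h 49.4% and 43.5% against 48.1% and 38.3%, with overlap.

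At 48 h Psma7, an alpha ring subunit, had the smallest p. Its ~60-nt share was 63.8% and 55.0% in siCtl and 39.2% and 37.5% in siLarp1 libraries, without overlap (log2 odds −1.18, SE 0.39, adjusted p = 0.202). At 24 h its shares were 50.0%, 48.1% and 46.8% against 47.2%, 46.6% and 44.3%, with overlap. Psmb1, a beta ring subunit without a cutting site, had 47.4% and 52.6% in siCtl and 42.6% and 32.4% in siLarp1 libraries at 48 h (log2 odds −0.75, SE 0.34, adjusted p = 0.465). At 24 h it stood at 41.9%, 40.9% and 41.7% against 44.2%, 48.8% and 33.7%, so its siLarp1 libraries fell on both sides. Psmg1, the chaperone with the shortest control tails, had 57.1%, 52.4% and 62.5% against 41.7%, 26.7% and 41.4% at 24 h, without overlap, and 66.7% and 56.5% against 45.0% and 69.2% at 48 h, with overlap (log2 odds over both times −0.95, SE 0.41, adjusted p = 0.444).

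For median tails, limma on genes with at least 5 reads in every library called 0% of 2568 genes at 24 h, 0% of 2581 at 48 h and 0.139% of 2159 over both times, and no proteasome gene. The median change of the proteasome genes was 4.62 nt at 24 h (31 of 41 above 0), 4.63 nt at 48 h (26 of 40) and 5.38 nt over both (35 of 39), beside 1.38, 2.81 and 1.88 nt over all genes. Of all genes tested 55.2%, 58.0% and 58.4% were above 0. At an unadjusted p under 0.05, 6, 3 and 7 proteasome genes were higher (backgrounds 3.27%, 3.99% and 4.08%), and none was lower (backgrounds 2.57%, 1.74% and 2.59%). At 48 h the median change was 0.41 nt, beside −0.40 nt over all genes, without siLarp1 library 25. With the mean tail in place of the median it was 1.14 nt, below the 1.89 nt over all genes. Groups did not overlap, with siLarp1 higher, in 10 of 39 proteasome genes at 24 h (background 6.84%), in 10 of 28 at 48 h (background 23.1%) and at both times in 2 of 28 (background 1.31%), Psma1 and Psma6. With siLarp1 lower, they did not overlap in 0 of 39 at 24 h (background 5.76%) and in 1 of 28 at 48 h (Psmc1, background 12.1%).

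Psma1, an alpha ring subunit, had medians of 89.9, 87.4 and 80.5 nt in siCtl and 106.0, 119.2 and 97.1 nt in siLarp1 libraries at 24 h. At 48 h they were 77.5 and 79.1 nt against 100.1 and 87.8 nt. All siLarp1 libraries were higher, and the limma change was 22.5 nt (SE 7.66, adjusted p = 0.584) at 24 h and 20.7 nt (SE 6.21, adjusted p = 0.246) over both times. Psma6, another alpha ring subunit, had 85.7, 83.9 and 93.1 nt against 103.4, 99.3 and 94.5 nt at 24 h, and 83.8 and 91.7 nt against 101.8 and 101.3 nt at 48 h. Psma2, also of the alpha ring, had 97.5, 93.5 and 96.2 nt against 96.8, 95.0 and 119.8 nt at 24 h and 89.4 and 91.5 nt against 92.7 and 119.2 nt at 48 h, so that 1 library at each time stood high (change over both times 11.6 nt, SE 4.68, adjusted p = 0.554). Psmd14 was at 85.5, 80.4 and 78.4 nt against 93.0, 112.4 and 110.9 nt at 24 h, without overlap (25 nt, SE 8.83, adjusted p = 0.584).

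At 48 h Psmb4 was at 90.4 and 92.5 nt in siCtl and 107.9 and 128.2 nt in siLarp1 libraries (23.7 nt, SE 7.78, adjusted p = 0.671). The largest fitted change at 48 h among those named was that of Psmg2, 86.1 nt (SE 24.8, adjusted p = 0.671), on 7 and 5 reads in the siLarp1 libraries. Psma3, an alpha ring subunit among the most read, had medians of 74.1, 84.6 and 85.7 nt against 86.4, 79.8 and 88.8 nt at 24 h, with overlap. Psmb2 and Psmb3, beta ring subunits among the most read, also overlapped at 24 h, at 123.0, 119.4 and 115.2 nt against 135.1, 121.6 and 112.8 nt and at 106.3, 105.7 and 100.6 nt against 108.8, 108.0 and 97.4 nt. Psmb3, with 1607 reads, was the most sequenced of the proteasome genes.

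For tails under 30 nt, 1.07% of 1867 genes at 24 h, 0.486% of 823 at 48 h and 3.3% of 1395 over both were called, all higher in siLarp1, and no proteasome gene. The changes of the proteasome genes were above 0 in 12 of 39, 15 of 28 and 17 of 35 cases, beside 54.2%, 65.9% and 63.3% over all genes tested. Of the calls 20, 4 and 40 were ribosomal protein genes. These counts of calls rested on single libraries: at 24 h they were 0 without siCtl library 19 or 21, 3 without siCtl library 22 and 11 without siLarp1 library 19, and at 48 h 0 without any 1 of the 4. Over both times they were 2 without siCtl library 24, siLarp1 library 24 or siLarp1 library 25, 8 without siCtl library 25 and 24 without siLarp1 library 22. Groups did not overlap, with siLarp1 higher, in 1 of 39 proteasome genes at 24 h (Psmb5, background 6.22%), in 5 of 28 at 48 h (Psma7, Psmb1, Psmb7, Psmc3 and Psmd13, background 27%) and at both times in 0 of 28 (background 5.82%). With siLarp1 lower, they did not overlap in 1 of 39 at 24 h (Psmd5, background 4.63%) and in 4 of 28 at 48 h (Psma1, Psma5, Psmb4 and Psmd12, background 9.13%).

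Psmb5, which carries the chymotrypsin-like site, had 3.02%, 5.24% and 4.38% tails under 30 nt in siCtl and 5.88%, 11.9% and 8.82% in siLarp1 libraries at 24 h, without overlap. The change in log2 odds was 1.12 (SE 0.42, logistic model adjusted p = 0.305), and limma on log2 odds, the other tool, called it. Over all genes at 24 h that tool called more genes than the 20 of the logistic model. Its count is given with the other processing alternatives below. At 48 h its shares were 8.33% and 5.94% against 7.29% and 4.29%, with overlap. Psmd4 had 0 of 101 siLarp1 reads under 30 nt at 24 h, which allows a share of up to 2.97% (counting error only), while its siCtl libraries had 0%, 3.96% and 4.24% (adjusted p = 0.397, with no finite estimate).

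At 48 h Psma7 had 0% and 5.0% in siCtl and 8.86% and 10.4% in siLarp1 libraries (log2 odds 1.81, SE 0.86, adjusted p = 0.427). Psma5, an alpha ring subunit, had 14.7% and 17.4% in siCtl and 9.38% and 2.86% in siLarp1 libraries (log2 odds −1.38, SE 0.68, adjusted p = 0.445), the opposite direction within the same ring. Psme2, a subunit of the cytoplasmic activator, had 0%, 0% and 1.79% in siCtl and 0%, 7.69% and 4.55% in siLarp1 libraries at 24 h. At 48 h it had 0% and 0% in siCtl against 11.1% and 13.0% in siLarp1 libraries. The change in log2 odds over both times was 3.20 (SE 1.57, logistic model adjusted p = 0.248). These shares rest on few reads: 1 of 120 siCtl and 2 of 55 siLarp1 reads at 24 h, and 0 of 30 and 6 of 50 at 48 h. The 0 of 30 allows a share of up to 10% (counting error only).

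The proteasome genes' share of all kept reads at 24 h averaged 1.25% for siCtl (SD 0.0183, n = 3) and 1.17% for siLarp1 (SD 0.0314, n = 3), without overlap. At 48 h the averages were 1.20% (SD 0.0548, n = 2) and 1.14% (SD 0.0827, n = 2), with overlap. The share of the TRiC genes was also lower in siLarp1 at 24 h, at 0.583% and 0.511% without overlap. At 48 h it was 0.526% and 0.543%, with overlap. A direct RNA read stands for 1 molecule, so no length scaling was used. Abundance fits with limma voom called 0% of 4800 genes at 24 h, 0% of 2704 at 48 h and 0.102% of 3940 over both, and no proteasome gene. Changes were above 0 in 14 of 44, 16 of 42 and 13 of 44 proteasome genes, and in 51.1%, 53.2% and 52.3% of all genes tested. The log2 medians of the proteasome genes were −0.06, −0.08 and −0.09 beside 0.01, 0.02 and 0.01 over all genes. At an unadjusted p under 0.05, 0 proteasome genes were higher and 3 lower at 24 h (backgrounds 3.5% and 2.1%), 2 were higher and 1 lower at 48 h (backgrounds 2.59% and 2.4%), and 1 was higher and 2 lower over both times (backgrounds 3.38% and 2.61%).

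**Figure D5:**
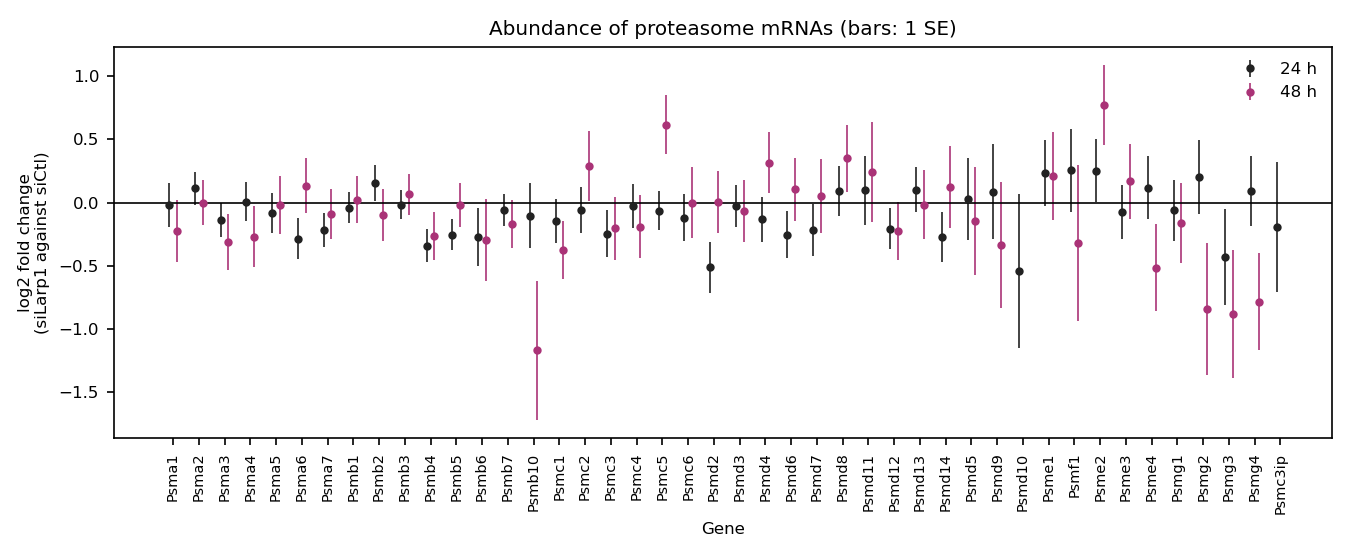
Fitted log2 fold change in abundance (siLarp1 against siCtl) of each proteasome gene tested at 24 h (black) and 48 h (purple), with bars of 1 SE. The points scatter around 0, with medians of −0.06 at 24 h and −0.08 at 48 h, and none passed the adjusted threshold.

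Groups did not overlap, with siLarp1 lower, in 5 of 39 proteasome genes at 24 h (background 7.61%) and in 4 of 28 at 48 h (background 20.4%), and with siLarp1 higher in 3 of 28 at 48 h (background 17.6%). Psmb4 was at 597, 613 and 716 RPM in siCtl and at 484, 568 and 478 RPM in siLarp1 libraries at 24 h, without overlap, and at 710 and 582 RPM against 592 and 456 RPM at 48 h, with overlap. Its log2 change was −0.34 (SE 0.13, limma adjusted p = 0.826) at 24 h and −0.31 (SE 0.11, adjusted p = 0.611) over both. Psmd2 was at 266, 218 and 236 RPM against 159, 142 and 191 RPM at 24 h (log2 change −0.51, SE 0.20, adjusted p = 0.826). At 48 h Psmc5, a cap ATPase, was at 328 and 224 RPM against 420 and 382 RPM (log2 change 0.62, SE 0.23, adjusted p = 0.882) and Psme2 at 88.7 and 112 RPM against 167 and 191 RPM (log2 change 0.77, SE 0.32, adjusted p = 0.882).

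The catalytic subunits differed widely in reads. Psmb5, Psmb7 and Psmb6 had 1301, 1254 and 309 kept reads. Their interferon-inducible counterparts Psmb8, Psmb9 and Psmb10 had 3, 7 and 196. The low number for Psmb6 went with its quality tags: 14.4% of its 2161 alignments had PASS estimates, and 72.3% the tag SUFFCLIP, beside a median PASS share of 84.2% over 43 proteasome genes and 83.3% over all genes with at least 100 alignments. Psmd1, the large scaffold subunit of the cap, was alike, with 5.16% PASS and 79.1% SUFFCLIP among 368 alignments and 19 kept reads. Of the 1782 alignments to the protein-coding Psmb6 transcript ENSMUST00000018430.6 (GRCm38, chr11:70525386-70527649, plus strand) 94 passed, and of 375 to the retained-intron transcript ENSMUST00000128870.1, which ends further downstream, 217 passed. Part of the kept Psmb6 values thus came from alignments to a transcript that is not annotated as protein-coding. Only 33.7% of the kept Psmb6 reads aligned to no other sequence. These alignments therefore do not show which transcript a read came from.

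The annotated 3′ ends of these transcripts (GENCODE vM21, GRCm38), last 30 bases, are shown because the tag concerns how reads align there. The first polyadenylation hexamer AATAAA of each window is in capitals, and further matches, as in Psmb7, are left in lower case. It was searched on the transcript strand only and is present in 70.8% of the 48 proteasome genes' most aligned transcripts. Among all 58797 annotated protein-coding transcripts it is present in 35.5%. These sets were chosen differently, the first by reads and the second with every annotated transcript of a gene, so the shares cannot be compared directly.

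Psmb6, ENSMUST00000018430.6 (chr11:70527620-70527649, plus strand): gacgcagaagctAATAAAcagtttgttaaa
Psmb6, ENSMUST00000128870.1 (chr11:70527829-70527858, plus strand): gtttttaAATAAAatggtttgttttatgtg
Psmd1 (chr1:86139122-86139151, plus strand): tgaaatgtcgtgagggaacccatgctgaga
Psmb7 (chr2:38588036-38588065, minus strand): aAATAAAtaaataaaaagacaaaaaactta

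The Psmd1 window has no AATAAA. Both Psmb6 windows, which lie at different annotated transcript ends, have it. Psmb7, shown as a gene with many PASS reads, has it near the start of the window. No reason for the tags was tested.

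The effects at 48 h and 24 h were compared with an interaction term. It called 0% of the genes tested in each of the 4 measures, while an unadjusted p under 0.05 was reached upwards and downwards by 44 and 24 of 1395 genes for tails under 30 nt, 22 and 66 of 1403 for ~60-nt tails, 67 and 44 of 2159 for median tails and 92 and 79 of 3940 for abundance. Among proteasome genes these numbers were 1 and 0, 0 and 1, 2 and 3, and 1 and 0. No single proteasome gene passed the adjusted threshold for a difference between the times.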

How the data were processed

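Direct RNA reads of 10 P19 libraries were compared between siLarp1 and siCtl cells, 3 against 3 at 24 h and 2 against 2 at 48 h. Per the study's methods, the authors called bases with Guppy, assigned barcodes with Deeplexicon, aligned reads to mm10 transcripts (GENCODE vM17) with minimap2 2.20 and estimated tails with Nanopolish. The deposited table gives, for each read and aligned sequence, the tail length in nt with its quality tag, the confidence of the barcode call as a fraction from 0 to 1 and the mapping quality as a score. It still holds rows of other tags, while the study's own tail analysis used PASS reads. Groups came from the sample labels, and each library name in the table matched 1 labelled treatment and time (0 names were unmatched), but the table does not say which labelled replicate a numbered library is.

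Reads with PASS tails on mRNA that was neither mitochondrial nor a pseudogene were kept. Tails under 30 nt and of 30 to 90 nt were tallied per gene and tested with a quasi-binomial logistic model (dispersion moderated with limma 3.58.1, R 4.3.3, and not below 1), medians with limma weighted by reads, and abundance with limma voom, at an adjusted p under 0.05 over all genes. Genes needed 100 reads at a time point for shares, 30 for abundance (each times 2 over both times) and 5 in every library for medians. The study's test per transcript was replaced because shares rest on few reads. The models were tested on simulated data. Simulated shares varied between libraries by counting error alone, so that test does not cover further spread between real libraries. SDs give the precision, and counts of reads per library limit it.

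The members and lists were chosen with earlier results of these data known. Named genes are the 10 most read, the 2 with the smallest p in each measure and fit (or every called one), the ends of the siCtl order, Larp1, Psmc3ip and the catalytic subunits. Psmd4, Psma6, Psmd1, Psmd5, Psmd12, Psmd13, Psmc1 and Psmc3 were also named after their values were seen, as were the genes of the closing section. Alternatives were the library number as a block, each library left out, transcripts in place of genes, barcode confidence of at least 0.9, reads aligned to 1 sequence, thinning to equal depth, other read minimums, class limits, dispersion, scaling and tools, and all quality tags. Same-numbered libraries had correlations of deviations of 0.03, 0.21 and 0.21 at 24 h and 0.06 at 48 h, not all over 0.1, so they were not paired.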

Additional observations from a re-analysis of the deposited data

Results flagged for a closer look

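In 4 genes the siLarp1 libraries lay on one side of the siCtl libraries at 24 h and on the other side at 48 h, without overlap at either time. Among the genes with reads in every library this held for median tails in 3 of 44 proteasome genes and 1.63% of all 5447 genes, and for tails under 30 nt in 1 of 44 and 0.367%. The median tail of Psmb6 was 12 nt higher in siLarp1 at 24 h and differed by −14.7 nt at 48 h, with at least 13 reads per library (limma interaction −28.4 nt, SE 18.2, adjusted p = 0.972). With tail estimates of all quality tags its medians differed by 3.96 nt at 24 h and by 2.96 nt at 48 h, with overlap at both times. The median tail of Psmd11, a non-ATPase subunit of the cap, differed by 24.4 nt at 24 h and by −31.9 nt at 48 h, with at least 8 reads per library (interaction −54.9 nt, SE 23.5, adjusted p = 0.923). The share of tails under 30 nt in Psmd5, a chaperone of the cap, differed by −6.07 percentage points at 24 h and by 17.8 at 48 h, on as few as 7 reads, and this difference between the times was not tested. The median tail of Psmc3ip differed by −38.6 nt at 24 h and 34.3 nt at 48 h, on as few as 2 reads, also not tested.

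Over the reads of 28 other genes of the ubiquitin-proteasome pathway (ubiquitin receptors, deubiquitinases, transcription factors and VCP partners), the share of tails under 30 nt differed by −0.675 percentage points at 24 h and by 1.41 at 48 h, without overlap at either time. The difference between the times was not tested for this list.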

How the results depend on the processing

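The falls in the pooled ~60-nt share and the rises in the pooled median of the proteasome genes kept their direction in every alternative run. Leaving out a library, the changes at 24 h and 48 h ranged from −5.78 to −4.26 and from −7.77 to −4.71 percentage points, from 4.47 to 7.53 nt and from 4.14 to 10.1 nt, and for tails under 30 nt, which crossed 0, from −0.860 to 0.474 and from −0.658 to 1.30. No proteasome gene was called in any alternative except 1, Psmb5 (tails under 30 nt, 24 h), by limma on log2 odds.

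Counts of called genes over all genes moved more. For tails under 30 nt (20, 4 and 46 at 24 h, 48 h and over both) limma on log2 odds gave 94, 38 and 101, thinning 6 and 17 at 24 h and 48 h, and 30 reads as the minimum 10 over both. At 48 h transcripts gave 0, barcode confidence 0 and reads aligned to 1 sequence 7. For the difference between times in ~60-nt tails (0) limma gave 1. For medians (0 at 24 h, 3 over both) transcripts and reads aligned to 1 sequence gave 2 at 24 h, and over both barcode confidence gave 1, thinning 0 and means 6. For abundance (0, 0 and 4) no minimum of reads gave 15, 17 and 21 and 2 for the difference, transcripts 2 at 24 h, all tags, chosen after seeing the data, 2 and 1, and barcode confidence and median-ratio scaling 2 over both.

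Leaving out a library, tails under 30 nt gave 0 to 20, 0 to 0 and 2 to 43 calls, ~60-nt tails (6, 0 and 9) 0 to 13, 0 to 16 and 5 to 14, and 0 to 1 for the difference. Medians gave 0 to 3, 0 to 4 and 1 to 8, and abundance 0 to 8, 0 to 5 and 0 to 8.

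With the library number as a replicate block the calls were 0, 0 and 0 for tails under 30 nt, 3 at 24 h for ~60-nt tails, 4 at 24 h and 7 over both for medians, and 20, 4 and 17 for abundance, with no proteasome gene. Each 24 h library correlated best with its own number, a hint from the data and not the design. The cause of these shifts was not tested.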

Other observations

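The other pathway genes, 32 by name of which 28 had reads, gave these values. Their pooled ~60-nt share averaged 37.1% for siCtl and 34.3% for siLarp1 at 24 h, with overlap, and 40.2% and 35.7% at 48 h, where siLarp1 was lower without overlap. The logistic model tested 16 of the 32 for ~60-nt tails at 24 h, with 12 below 0, and 7 at 48 h, with 4 below 0, and called 0. Over all genes tested 56.5% and 68.0% were below 0. Their pooled median tail averaged 105.1 nt for siCtl (SD 2.24, n = 3) and 110.6 nt for siLarp1 (SD 2.56, n = 3) at 24 h, without overlap, and 99.5 and 102.2 nt at 48 h, with overlap. Their share of all kept reads was 0.313% and 0.341% at 24 h, higher without overlap in siLarp1, while that of the proteasome genes was lower. Of 27 tested for abundance at 24 h limma called 0, and 4 were higher and 0 lower at an unadjusted p under 0.05 (backgrounds 3.5% and 2.1%).

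With tail estimates of all quality tags, chosen after seeing the data, Psmb6 averaged 820 RPM for siCtl (SD 29.7, n = 3) and 698 RPM for siLarp1 (SD 48.9, n = 3) at 24 h, without overlap, and at 766 and 752 RPM at 48 h, with overlap. Its ~60-nt share was 51.5% and 48.9% at 24 h, with overlap, and 53.2% and 45.3% at 48 h, without overlap. For Psmd1 the ~60-nt shares of all tags were 39.7% and 39.1% at 24 h and 43.9% and 36.4% at 48 h, overlapping at both times.

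Reads of the proteasome genes on retained-intron transcripts (503 reads of 17 genes) had a median tail of 84.4 nt, and those on protein-coding transcripts (24011 reads of 48 genes) one of 96.0 nt. Of the 503, 217 were of Psmb6. Its alignments to the retained-intron transcript had a median of 86.4 nt and those to the protein-coding transcript had a median of 75.1 nt. Most kept Psmb6 reads also aligned to another sequence, so these medians do not separate the transcripts.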
